A study of Rattus norvegicus with 6 samples.

Results

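Protocadherin genes were taken as the protein-coding rows of the deposited count table whose gene name begins with Pcdh, which gave 48 of 34156 rows. Of these, 37 belong to the clustered protocadherins on rat chromosome 18, with 3 rows of the alpha cluster, 16 of the beta cluster and 18 of the gamma cluster. The other 11 rows are non-clustered protocadherins, which lie on chromosomes 2, 14, 15, 18, 20 and X. The family was chosen because the chromosome 18 genes were lower together in this same comparison. Their levels with and without emodin are therefore given below as a description, with no test, and tests are given only for other genes.

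Protocadherins are single-pass membrane adhesion proteins of the cadherin superfamily. In the clustered family, each variable exon has its own promoter, and an alpha or gamma variable exon is spliced to constant exons that all genes of its cluster share, whereas a beta gene encodes its whole protein in a variable exon alone. They are best known in neurons, where the choice of promoter gives single cells a distinct surface identity, and the choice depends on DNA methylation, the boundary factor CTCF and the cohesin ring. Fibroblast-like synoviocytes, the resident fibroblasts of the joint lining, are better known for the classical cadherin Cdh11 (cadherin-11).

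The study asked what emodin (EMO), an anthraquinone of rhubarb, does to fibroblast-like synoviocytes kept in an inflammatory state. The cells were rat synoviocytes labelled wild type (WT) with rheumatoid arthritis as the disease state, passaged in culture, and poly(A) RNA was sequenced from 3 libraries per group. The TNF-α group received 10 ng/mL of the cytokine TNF-α, and the EMO group received the same TNF-α together with 80 μmol/L EMO, so that both groups carry TNF-α and no untreated library is compared here. The labels give day 5 for all 6 libraries, whereas the study's methods describe a shorter exposure. The labels do not say how many animals the cells came from, so the spread between libraries may be technical.

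The 6 libraries held 16813322 to 17794455 counts. EMO replicate 3 stood apart from its group, with a chi-square of 16.0 and 25.0 per gene against the other EMO libraries, beside 6.66 between those and 4.75 to 5.87 within the TNF-α group. Between 13342 and 13365 genes had at least 10 counts in the TNF-α libraries and between 12566 and 12662 in the EMO libraries. Of 13614 genes tested across the genome, 3783 were called lower with EMO and 2659 higher, a call being an adjusted p under 0.05 in edgeR's quasi-likelihood test with an absolute log2 fold change over 1. The median log2 fold change of all genes tested was -0.01. In these bulk libraries, fewer cells of a type and less RNA per cell cannot be told apart.

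Promoters of the beta genes share a block of sequence. RefSeq promoter windows, from 250 bases before to 50 bases after each start on build GRCr8, were available for 27 of the 36 clustered symbols and for 3 further beta genes that the count table lists under LOC names. With the other RefSeq protocadherin names of the array, these made 34 clustered promoters, of which 1 is alpha, 19 are beta and 14 are gamma. The 10-letter string GGTGGCGCTG was picked after the sequences had been seen, as the 10-letter string that the most beta promoters hold, so its beta count is a description. Searched on both strands, it stood in 15 of the 19 beta promoters, 0 of the 14 gamma promoters and 0.221% of all 33469 rat promoters. The beta windows of 40 bases below are shown because they let the shared block and its changing flanks be compared, 3 from beta genes too low for the fit described below and 3 from neighbouring genes that entered it. All run 5′ to 3′ on the plus strand, and capitals mark the string.
Pcdhb2, chr18:29279918-29279957: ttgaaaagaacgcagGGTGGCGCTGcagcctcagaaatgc
Pcdhb5, chr18:29302399-29302438: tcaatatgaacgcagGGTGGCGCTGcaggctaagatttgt
Pcdhb14, chr18:29431804-29431843: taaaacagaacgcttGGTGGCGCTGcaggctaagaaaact
Pcdhb19, chr18:29478759-29478798: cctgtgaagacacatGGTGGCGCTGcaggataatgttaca
Pcdhb20, chr18:29485805-29485844: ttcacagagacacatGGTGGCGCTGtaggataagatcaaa
Pcdhb21, chr18:29492144-29492183: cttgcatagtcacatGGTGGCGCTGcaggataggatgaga

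The string lay upstream of the start in 14 beta promoters, at 46 to 229 bases with a median of 68.5, and 36 bases after it in the promoter RefSeq names Pcdhb16. Its inner 6 letters GGCGCT, which hold the CGCT core described for protocadherin promoters, stood in 15 of 19 beta, 5 of 14 gamma and 14.5% of all promoters. CGCT alone stood in 28 of the 34 clustered promoters and in 60.9% of all. For CCCTC, a short piece of the CTCF motif, the numbers were 11 of 34 clustered promoters and 64.7% of all, and for the TATA box TATAAA they were 7 of 34 and 14.2%. A match in these windows is a description and no measure of binding.

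**Figure D1:**
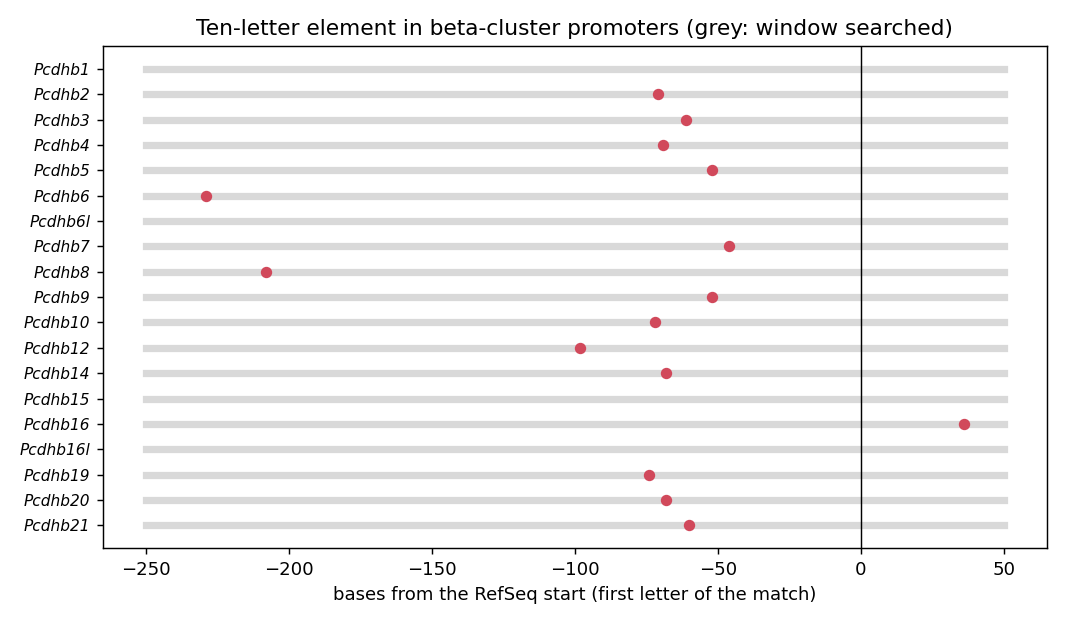
Each point is a match of the 10-letter string in a beta promoter, plotted by the distance of its first letter from the RefSeq start (horizontal axis, bases), with the promoters as lines and the window searched in grey. The matches lie at a median of 68.5 bases before the start, the match in Pcdhb16 lies after it, and 4 promoters (Pcdhb1, Pcdhb6l, Pcdhb15 and Pcdhb16l) hold none.

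Clustered protocadherin RNA was detected in every TNF-α library and was far lower in every EMO library. The 37 rows named Pcdh summed to 6120, 6117 and 5598 counts with TNF-α, and to 312, 300 and 294 with EMO. Scaled to a common library size by edgeR's TMM method (normalized counts below), the sum was 5807 ± 307 (SD, n = 3) against 309 ± 11.4 (SD, n = 3), which is 18.8-fold lower with EMO. No EMO library came near a TNF-α library in this sum, and without EMO replicate 3 the log2 ratio of the sums was -4.98 for alpha, -2.31 for beta and -4.34 for gamma.

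The gamma cluster carried most of the counts and the beta cluster kept the largest fraction of its level. The gamma sum was 4947, 4903 and 4586 counts with TNF-α and 238, 213 and 219 with EMO, or 20.5-fold lower. The alpha sum was 873, 905 and 761 counts against 17, 34 and 15, or 36.7-fold lower. The beta sum was 300, 309 and 251 counts against 57, 53 and 60, or 4.82-fold lower. In normalized counts, the EMO group thus held 4.87% of the TNF-α level for gamma, 2.73% for alpha and 20.7% for beta. These sums hold only rows named Pcdh, and they depend on that naming. LOC108348201, a beta row that RefSeq names Pcdhb15, averaged 74.2 normalized counts with TNF-α and 106 with EMO. The 16 named beta rows together summed to 280 and 58.0.

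The make-up of the clustered counts was accordingly different with EMO. Beta rows under LOC names are left out of the shares below, which would differ with them. The beta share was 4.90%, 5.05% and 4.48% of clustered counts with TNF-α and 18.3%, 17.7% and 20.4% with EMO. The highest TNF-α share had a 95% Wilson interval of 4.53 to 5.63% and the lowest EMO share an interval of 13.8 to 22.4%, which describe counting error and are no test of the groups. The alpha share was 13.6 to 14.8% in the TNF-α group and 5.10 to 11.3% in the EMO group, where EMO replicate 2 was the high library. Pcdhgc3 alone took 63.1 to 66.4% with TNF-α and 59.7 to 62.9% with EMO, but the nearest libraries overlapped in their intervals, at 61.8 to 64.3% for TNF-α replicate 2 and 57.3 to 68.2% for EMO replicate 3. Wilson intervals cover counting error only, since the reads carry no molecular identifiers.

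**Figure D2:**
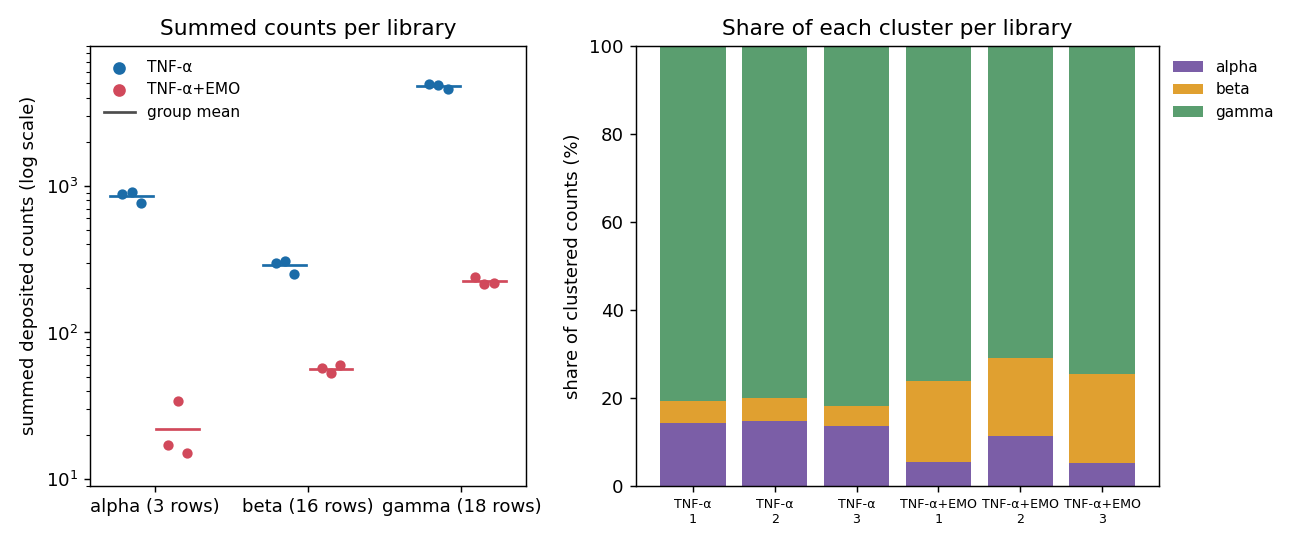
Left, summed deposited counts of the alpha, beta and gamma rows per library (log scale; points are libraries, lines group means); right, the share of clustered counts that each cluster took in each library (%). The beta share, over rows named Pcdh only, is 4.48 to 5.05% with TNF-α and 17.7 to 20.4% with EMO.

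Of the 48 members, 16 had at least 10 counts in at least 3 libraries and entered the fit across all genes, 12 of them clustered. Of the 12, all 12 met the rule for a call lower with EMO, beside 27.8% of all genes tested. Because the members were chosen from this contrast, nothing is read from that count, and 9 of the 12 passed the filter on low counts through their TNF-α libraries only. Pcdhb20 did not meet it without EMO replicate 1, at a log2 fold change of -0.97. Their log2 fold changes ran from -5.36 to -1.32 with a median of -3.92, and the median was -3.16 with the 3 rows whose EMO libraries all held 3 counts or fewer set at 3 counts per EMO library. Across all 37 clustered rows, the libraries of the groups did not overlap in 22, with EMO lower in each. Of all genes tested, which leaves out rows too low for the fit, 42.5% lay apart in that direction.

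In the gamma cluster, Pcdhgc3 (ENSRNOG00000019799, chr18:30913842-30969361 on Rnor_6.0, plus strand), a C-type gamma gene, had the highest counts of all members. Its counts were 3949, 3857 and 3715 with TNF-α and 195, 179 and 185 with EMO. In normalized counts this was 3751 ± 128 against 191 ± 9.23 (SD, n = 3 each), with a log2 fold change of -4.30 (SE 0.07). Within each group the libraries differed little, and the groups were far apart. The row reaches far past its own 5288-base length, to the last base of the array, so reads from constant exons that every gamma transcript carries may have been counted on it.

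The other gamma rows end before Pcdhgc3 and so before the shared exons. Pcdhgb8 (chr18:30909490-30912592), a B-type gamma gene directly before Pcdhgc3, had 775, 821 and 709 counts with TNF-α and 28, 26 and 21 with EMO. Its log2 fold change was -4.87 (SE 0.13), or 29.2-fold lower. Pcdhga7 (chr18:30864216-30866645), an A-type gamma gene, had 79, 88 and 68 counts against 8, 4 and 10, a log2 fold change of -3.33 (SE 0.34). Neither gene had an EMO library near its TNF-α libraries. Without Pcdhgc3, the summed gamma counts were 998, 1046 and 871 with TNF-α and 43, 34 and 34 with EMO, or 25.0-fold lower.

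Most other gamma genes were low with TNF-α and at or near 0 with EMO. Pcdhga11 had 22, 26 and 16 counts against 1, 2 and 0, a ratio of 20.3 over the summed counts with an exact 95% counting interval of 6.65 to 101. Pcdhgb6 had 23, 12 and 14 counts against 1, 0 and 0, a ratio of 46.7 (8.002 to 1882). Pcdhgb4 had 10, 11 and 11 counts against 3, 0 and 0, a ratio of 10.2 (3.18 to 51.9). All EMO libraries were at 3 counts or fewer in these 3 of the 12 clustered rows in the fit and in 3.59% of all genes tested. The wide intervals show what this depth allows for such rows. Among rows too low for the fit, Pcdhga10 had 16, 14 and 8 counts with TNF-α and 0 in each EMO library. Pcdhga6 had 6, 15 and 10, and Pcdhga3 had 11, 8 and 7, again with 0 in each EMO library. In 14 of the 18 gamma rows the groups did not overlap, beside 42.5% of all genes tested with EMO lower, a share that leaves out rows too low for the fit. Pcdhga5 had no count in any library.

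In the alpha cluster, 2 of 3 rows entered the fit and both had more than 300 counts in each TNF-α library. The row Pcdha4 (ENSRNOG00000047174, chr18:29972808-29975192) had 443, 415 and 365 counts with TNF-α and 4, 14 and 10 with EMO. Its log2 fold change of -5.36 (SE 0.27) was the lowest among clustered rows in the fit. Another row of that name (ENSRNOG00000050378) had 1, 1 and 0 counts with TNF-α and 0 with EMO.

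Pcdha13 (ENSRNOG00000020119, chr18:29987206-30215897) had 429, 489 and 396 counts against 13, 20 and 5, a log2 fold change of -5.03 (SE 0.30). The EMO libraries spread widely around their low level, since replicate 3 was lowest for Pcdha13 and replicate 1 for Pcdha4, whereas the TNF-α libraries lay close together. The Pcdha13 interval covers most of the alpha array and its deposited gene length is 27070 bases, so this row, like Pcdhgc3, may hold reads of constant exons.

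Of the beta rows named Pcdhb, those with the most counts lie side by side at the downstream end, from Pcdhb19 to Pcdhb22. Rows of the beta array under other names are given below. Pcdhb19 (chr18:30574627-30577035) had 99, 97 and 83 counts with TNF-α and 4, 5 and 12 with EMO, a log2 fold change of -3.64 (SE 0.36). Pcdhb22 (chr18:30592794-30595181) had 96, 101 and 82 counts with TNF-α and 25, 26 and 18 with EMO, a log2 fold change of -1.94 (SE 0.24). The EMO libraries of Pcdhb22 thus all lay above those of Pcdhb19, although their TNF-α libraries overlapped.

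Pcdhb21 (chr18:30587872-30590789) had 42, 49 and 29 counts against 2, 7 and 5, or 7.99-fold lower (SE of its log2 value 0.43). Pcdhb20 (chr18:30581530-30584905) had 23, 22 and 21 counts against 4, 10 and 11, a log2 fold change of -1.32 (SE 0.40), and was the member just inside the fold threshold. The groups of both genes did not overlap, and for Pcdhb20 EMO replicate 1 was the low library. The median of the 4 beta rows was -2.47, above the -4.24 of the 6 gamma rows and the -5.20 of the 2 alpha rows, and these medians rest on few rows each.

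The remaining 12 beta rows held few counts. Pcdhb5 had 9, 15 and 15 counts with TNF-α and 2, 0 and 1 with EMO. Pcdhb14 had 12, 10 and 7 against 3, 3 and 6. Both genes had groups that did not overlap, whereas Pcdhb2, with 8, 8 and 2 against 2, 1 and 4, did overlap. A few beta rows had more counts with EMO: Pcdhb10 had 0, 0 and 2 counts against 4, 0 and 0, and Pcdhb11 had 1, 2 and 0 against 4, 0 and 0, in each case from EMO replicate 1 alone. Pcdhb1, the first beta gene, had no count in any library.

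Over all 23 clustered rows that had a count but were too low for the fit, the TNF-α libraries held 130, 129 and 89 counts and the EMO libraries 24, 7 and 17. By counts, the TNF-α sum was higher in 20 of these rows, the EMO sum in 2 (Pcdhb10 and Pcdhb11) and both were equal in 1 (Pcdhb9), and no library had more than 20 counts in any of them. At this depth, a change in a single such row was mostly not detectable, and 10 clustered rows had 3 counts or fewer in every library.

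**Figure D3:**
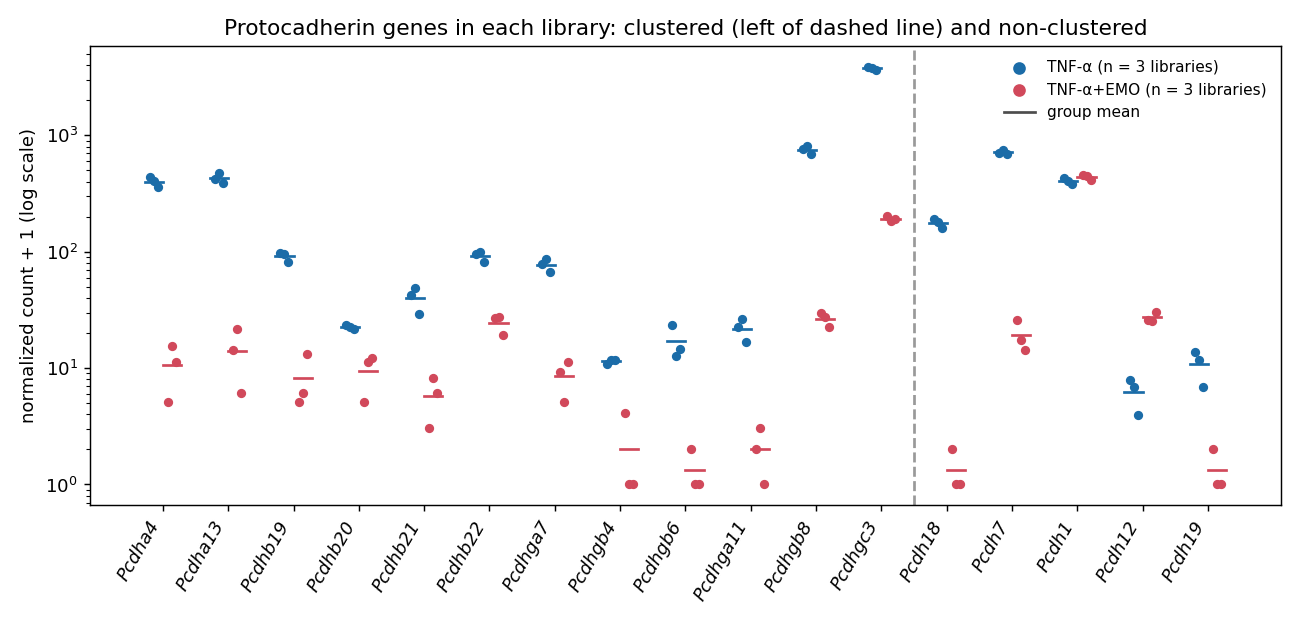
Normalized counts of the members in the 6 libraries (normalized count + 1 on a log axis; points are libraries, lines are group means, colours are groups). In all 12 clustered rows in the fit the EMO libraries lie below the TNF-α libraries, whereas Pcdh1 overlaps and Pcdh12 is higher with EMO.

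Levels between genes were compared per kilobase of the deposited gene length. In the TNF-α group, Pcdhgc3 led with 709 ± 24.1 normalized counts per kilobase (SD, n = 3), followed by Pcdhgb8 with 310 ± 22.9 and the non-clustered Pcdh7 with 199 ± 9.23. Pcdha4 followed with 167 ± 16.7 and Pcdh1 with 87.7 ± 5.57. Each of these lay outside the spread of the next. The levels of Pcdhb22 (38.0 ± 4.08), Pcdhb19 (37.7 ± 3.63), Pcdh18 (34.0 ± 3.05) and Pcdhga7 (31.5 ± 4.04) did not differ beyond their spread from neighbour to neighbour. Pcdha13, with 15.8 ± 1.70, was next to Pcdhb21, with 13.4 ± 3.41. The order did not follow position: the 2 highest gamma rows are the last of the gamma array, while the high alpha row is near the first base of the whole array.

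By position, 31 of the 37 clustered rows have an interval as long as their gene length, so that each is listed as a single exon, and no clustered row overlaps another listed row. The array runs over 1003 kb, from base 29966245 to base 30969361 of chromosome 18 on Rnor_6.0. Beta protocadherins resemble each other closely in sequence, and how reads that match several genes were counted is not given in the sources used here.

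Other rows inside the array were not chosen by name. LOC108348233 (chr18:30515962-30518352), which RefSeq names Pcdhb6l, was too low for the fit, with 1, 0 and 0 counts with TNF-α and 3, 2 and 8 with EMO. All its EMO libraries lay above all its TNF-α libraries, as in 40.3% of all genes tested, a share without such low rows. LOC108348771 (chr18:30562178-30564577), which RefSeq names Pcdhb16, had 48, 30 and 40 counts with TNF-α and 3, 5 and 7 with EMO. Its log2 fold change was -2.88 (SE 0.39), given without a p because the row passed the filter on low counts through its TNF-α libraries only. LOC108348201 (chr18:30550877-30553237), which RefSeq names Pcdhb15, had 79, 90 and 59 counts against 103, 111 and 97, so that all EMO libraries were above all TNF-α libraries. Its log2 fold change was 0.52 (SE 0.21, edgeR adjusted p = 0.039), which is no call, and its adjusted p reached 0.22 under the alternatives, where it missed the threshold in 7 of 12. A protocadherin row of the beta array thus had a level with EMO no lower than with TNF-α. Its promoter is among the beta promoters without the 10-letter string, and a link between the string and the level was not tested.

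All 3 pseudogene rows of the array in the fit were lower with EMO. AC131360.2 (chr18:30555090-30557497), between the LOC rows, had 259, 288 and 286 counts against 43, 21 and 50, and fell by 2.80 on the log2 scale (SE 0.26). It is given without a p because it fell with the array, which was chosen for that fall. AC131360.1 had a log2 fold change of -1.95 (SE 0.47), and AABR07031734.2, a pseudogene row within the gamma array, of -3.09 (SE 0.50). Both passed the filter through their TNF-α libraries only and are given without a p. With the other beta rows and pseudogene rows of the array added, an alternative chosen after seeing the data, the log2 ratio of the beta sum moved from -2.27 to -1.65.

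A pair of genes that are not protocadherins lie between the beta and gamma clusters on the opposite strand, and both rose. Taf7, a subunit of the general transcription factor TFIID, had 391, 397 and 366 counts with TNF-α and 749, 743 and 772 with EMO. Its log2 fold change was 1.04 (SE 0.08, edgeR adjusted p = 3.0e-07). Slc25a2, a mitochondrial carrier of basic amino acids, had 25, 27 and 17 counts against 38, 52 and 46, a log2 fold change of 1.04 (SE 0.29, edgeR adjusted p = 0.0061). The fold threshold was missed under library totals by both genes, at 0.93 for each, and by Taf7 without any single TNF-α library, at 0.93 to 0.99. Slc25a2 missed it at 0.79 without TNF-α replicate 3 and at 0.96 without EMO replicate 2. Both stayed above 0 throughout.

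Directly after the last gamma exon, 3546 bases away, lies Diaph1 on the opposite strand, a formin that assembles actin filaments. It had 2422, 2366 and 2303 counts against 416, 405 and 449 and fell by 2.41 on the log2 scale (SE 0.07, edgeR adjusted p = 1.3e-10). The next gene, Hdac3, a histone deacetylase, had 1473, 1351 and 1468 counts against 1316, 1265 and 1322, with overlapping normalized levels and a log2 fold change of -0.07 (SE 0.07, edgeR adjusted p = 0.35). Rell2, a partner of the TNF receptor family member RELT, rose by 2.32 (SE 0.30, edgeR adjusted p = 2.5e-05). On the other side, Zmat2, Hars2 and Hars1 had log2 fold changes of 0.74, 0.56 and 0.60, past the adjusted p but short of the fold threshold.

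Inside the array and within 2000000 bases on either side, 44 of 55 other protein-coding rows were tested, of which 9 fell, 6 rose and 29 were not called. Taf7 and Slc25a2, inside the array, are among the 6 that rose. The share called in either direction was 34.1%, beside 47.3% of all genes tested, and the median log2 fold change was 0.31. The lowest were Fgf1, a growth factor, at -6.05, Ecscr, an endothelial surface protein, at -3.89 and Cxxc5, a CXXC zinc finger protein, at -2.68. The highest besides Rell2 were Cystm1 at 1.81 and Rnf14, a ubiquitin ligase, at 1.47. Of the 9 that fell, 3 (Fgf1 and Ecscr among them) passed the filter through their TNF-α libraries only. Genes that fell and genes that rose were thus found on the same stretch of chromosome as the array.

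**Figure D4:**
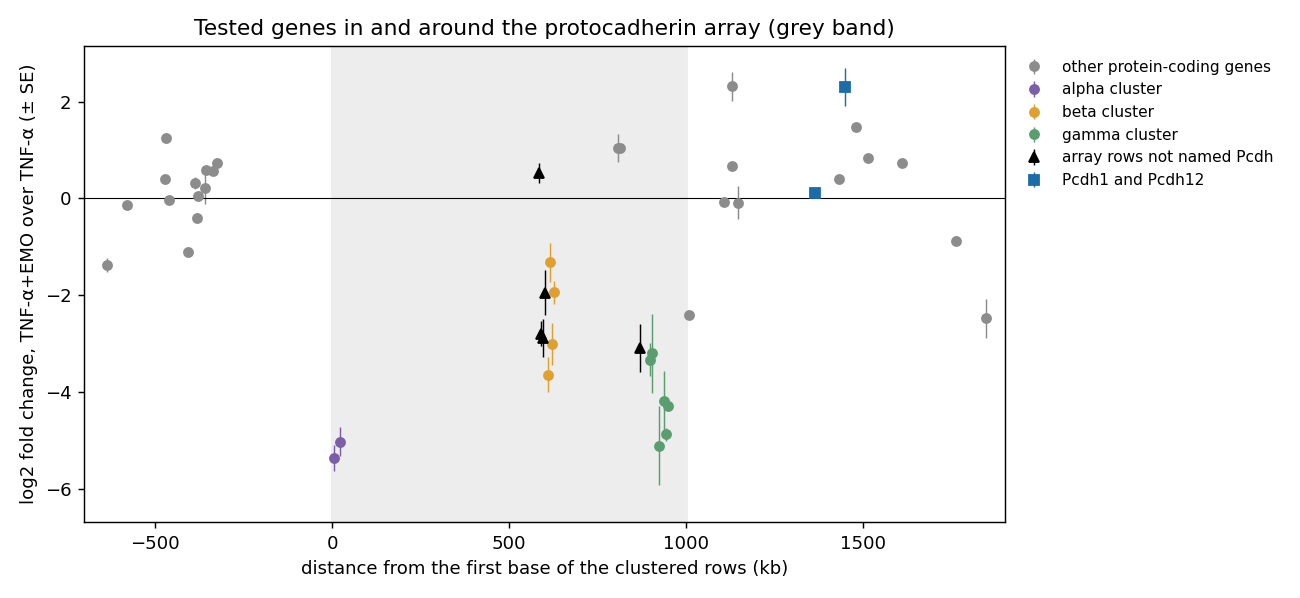
Log2 fold change (EMO against TNF-α, vertical axis; bars are SE) of tested rows in and next to the array by distance from the first base of the array (horizontal axis, kilobases; the shaded band is the array). Clustered rows named Pcdh lie between -5.36 and -1.32. Inside the band, LOC108348201, which RefSeq names Pcdhb15, lies at 0.52, and Taf7 and Slc25a2 lie at 1.04. Pcdh1, beyond the band, lies at 0.11.

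The non-clustered protocadherins went different ways. Of 11 rows, 5 had no count in any library (Pcdh8, Pcdh9, Pcdh10, Pcdh17 and Pcdh20), and 4 entered the fit. Of the 4, 2 met the rule for lower, beside 27.8% of all genes tested, 1 for higher, beside 19.5%, and 1 for neither. Of the 2 that met the rule for lower, Pcdh18 passed the filter on low counts through its TNF-α libraries only. Pcdh7 (chr14:55072200-55081551, minus strand), a delta-1 protocadherin, had 724, 769 and 702 counts with TNF-α and 24, 16 and 13 with EMO. Its log2 fold change was -5.29 (SE 0.17), or 39.2-fold lower. Pcdh18 (chr2:138819960-138833933, minus strand), a delta-2 protocadherin, had 195, 182 and 164 counts against 1, 0 and 0, a ratio of 516 (92.2 to 20411). Both genes had groups far apart, and they lie on other chromosomes than the array.

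The pair on chromosome 18 beyond the end of the array was not lower with EMO. Pcdh1 (chr18:31328919-31343797, minus strand), a delta-1 protocadherin also found in epithelia, had 441, 410 and 392 counts against 443, 435 and 401. In normalized counts it was 405 ± 25.7 against 437 ± 25.3 (SD, n = 3 each), the groups overlapped, and its log2 fold change of 0.11 (SE 0.09) made it the nearest member outside the threshold. Pcdh12 (chr18:31414250-31430973, minus strand), known from endothelium and placenta, had 7, 6 and 3 counts against 24, 24 and 29, a log2 fold change of 2.31 (SE 0.39), with all EMO libraries above all TNF-α libraries, as in 40.3% of all genes tested. It passed the filter on low counts only through its EMO libraries, since every TNF-α library was under 10 counts.

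Among rows too low for the fit, Pcdh19, a delta-2 protocadherin, had 13, 11 and 6 counts with TNF-α and 1, 0 and 0 with EMO, a ratio of 28.6 (4.76 to 1167). Pcdh15, a tip-link protein of hair cells, had 5, 2 and 3 against 1, 5 and 0, which overlap. The median of the 4 tested non-clustered rows was -2.59, but it has no stable direction. Without TNF-α replicate 1 or 2, Pcdh18 was too low for the filter and the median of the 3 rows left was 0.087 or 0.028, and without TNF-α replicate 3 it was -0.0034. Without any single EMO library, Pcdh12 was left out instead and the median ran from -5.56 to -5.09.

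Genes with a known part in the choice or silencing of clustered promoters are independent of the rule for members. Of 31 such names, found on 32 rows, 31 rows were tested, of which 8 fell, 1 rose and 22 were not called, so that 29.0% were called beside 47.3% of all genes tested. Their median log2 fold change was -0.58, and with no fold threshold 24 passed the adjusted p on the lower side and 4 on the higher side, beside 80.9% of all genes tested in either direction. The lowest was Tet3, which oxidises methylated cytosine, with 738, 770 and 642 counts against 91, 106 and 102. It fell by 2.78 on the log2 scale (SE 0.11, edgeR adjusted p = 1.7e-09).

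Of 10 genes of cohesin and its loading or release, all tested, 3 fell, beside 27.8% of all genes tested, and 7 were not called. Their log2 fold changes ran from -2.74 to 0.86. Pds5b, a cohesin regulator, had 2099, 2265 and 2143 counts against 317, 357 and 253 and fell by 2.74 (SE 0.11, edgeR adjusted p = 2.0e-09). Smc3, a core subunit of the ring, had 3839, 4056 and 3973 against 1680, 1600 and 1287 and fell by 1.31 (SE 0.09, edgeR adjusted p = 2.1e-07). For CTCF itself, the gene Ctcf had 1869, 1970 and 1997 counts against 1535, 1415 and 1405. All its EMO libraries were below all its TNF-α libraries, but the log2 fold change of -0.35 (SE 0.07, edgeR adjusted p = 4.3e-04) was short of a call.

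Among silencing factors, Smchd1, a chromatin protein that keeps clustered protocadherins silent, had 1374, 1423 and 1394 counts against 323, 327 and 304. It fell by 2.07 (SE 0.08, edgeR adjusted p = 7.7e-10). Lrif1, a binding partner of Smchd1, was the only gene of the list called higher, with 417, 495 and 437 counts against 1442, 1266 and 1072 and a log2 fold change of 1.56 (SE 0.12, edgeR adjusted p = 3.3e-07). The DNA methyltransferase gene Dnmt1 had 4005, 4130 and 4104 counts against 1049, 1023 and 983 and fell by 1.93 (SE 0.06, edgeR adjusted p = 2.2e-10). Dnmt3a, another methyltransferase gene, fell by 1.32 (SE 0.16, edgeR adjusted p = 1.7e-05). Dnmt3b, the methyltransferase known to act on clustered promoters, was low in both groups, with 32, 24 and 36 counts against 18, 29 and 23, and its log2 fold change of -0.32 (SE 0.31, edgeR adjusted p = 0.35) was within its error. Genes that open and genes that silence these promoters were thus both among those that fell, and their part in the level of the clustered genes was not tested.

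**Figure D5:**
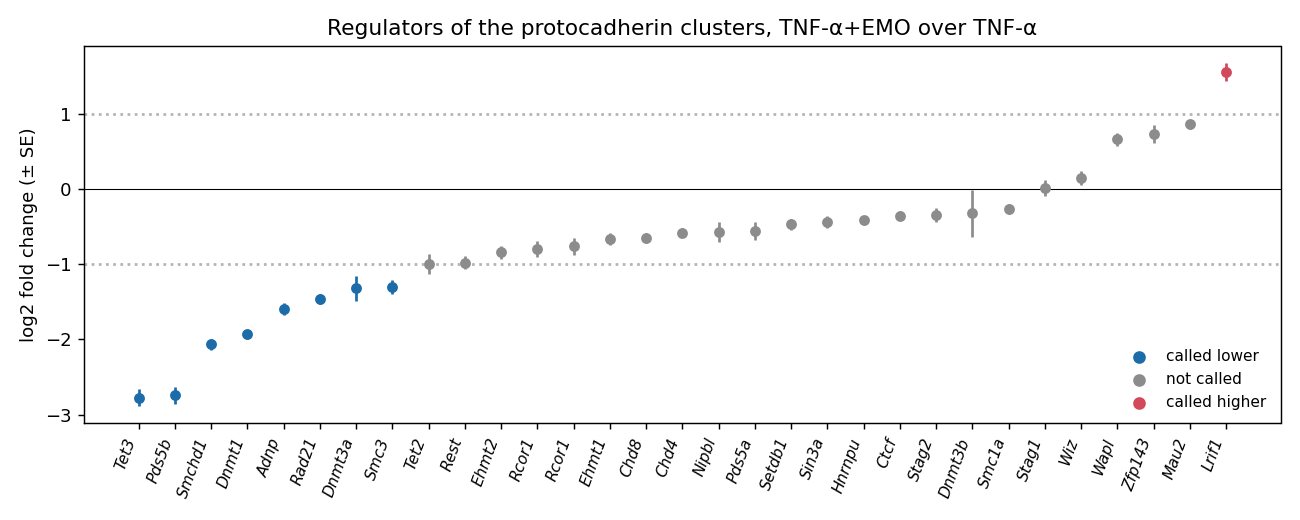
Log2 fold change (EMO over TNF-α, vertical axis; bars are SE) of the 31 tested regulator rows, ordered from low to high and coloured by call. Of these, 8 lie below -1 with an adjusted p under 0.05, from Tet3 at -2.78, and Lrif1 at 1.56 is the only one called higher.

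Genes that process protocadherins or signal with them moved both ways. Of 31 names, 30 were found and 27 tested, of which 8 fell, 4 rose and 15 were not called, a share of 44.4% beside 47.3% of all genes tested, with a median of -0.40. Adam10, the protease that sheds protocadherin ectodomains, had 2824, 3013 and 2713 counts against 1374, 1220 and 1084. It fell by 1.15 (SE 0.09, edgeR adjusted p = 4.0e-07). The lowest were Marcks, an actin-linked kinase substrate, at -3.16 (SE 0.09, edgeR adjusted p = 1.3e-10), and the WAVE complex genes Abi2 at -2.58 and Cyfip2 at -2.21. Other genes of that complex differed. Wasf1 fell by 2.15, whereas Cyfip1 at -0.91, Wasf2 at -0.88, Nckap1 at 0.27, Abi1 at 0.60 and Brk1 at 0.97 were not called.

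The kinase genes of that list did not move together. Fyn, a Src family kinase that alpha protocadherins bind, had 134, 162 and 155 counts with TNF-α and 987, 962 and 994 with EMO, and rose by 2.77 on the log2 scale (SE 0.09, edgeR adjusted p = 4.1e-10). Ptk2, the focal adhesion kinase that clustered protocadherins inhibit, had 3375, 3779 and 3496 against 2866, 2896 and 2508, a log2 fold change of -0.30 (SE 0.07, edgeR adjusted p = 0.0035) and no call. Ret, a receptor kinase that pairs with clustered protocadherins, had 0, 1 and 1 counts against 35, 29 and 48, 58.7-fold higher with an exact counting interval of 15.9 to 491, and passed the filter through its EMO libraries only. Map1lc3b, an autophagy protein, rose by 1.38 (SE 0.05, edgeR adjusted p = 1.5e-09).

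Most other cadherins that were tested fell. Of 47 names of the cadherin superfamily outside the protocadherins, 45 were found and 18 tested, of which 15 fell and 3 were not called. The share called in either direction was 83.3%, beside 47.3% of all genes tested. Of the 18, 6 passed the filter through their TNF-α libraries only and all 6 are among the 15, while 9 of the 12 with at least 10 counts in each EMO library fell. The median log2 fold change was -3.19, or -2.86 with genes at the floor set at 3 counts per library. At an adjusted p under 0.05 with no fold threshold, 1 gene of the list was on the higher side. The median of the 12 clustered protocadherins, at -3.92, lies beside this, and their difference was not tested.

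Cdh11, the cadherin of synovial fibroblasts, had 2893, 3111 and 3114 counts with TNF-α and 43, 43 and 32 with EMO. It fell by 6.20 on the log2 scale (SE 0.11, edgeR adjusted p = 4.5e-12). Cdh2, or N-cadherin, had 4676, 5079 and 5176 against 463, 504 and 426 and fell by 3.35 (SE 0.08, edgeR adjusted p = 3.6e-11). Cdh18 had 231, 265 and 255 counts against 0, 0 and 1, a ratio of 716 (128 to 28319), and Cdh3, or P-cadherin, fell by 6.73 (SE 0.14, edgeR adjusted p = 1.3e-11). The called genes nearest to 0 were Cdhr1 at -1.08, Cdh17 at -2.27 and Cdh24 at -2.43, and Cdhr1 missed the fold threshold without EMO replicate 3, at -0.98.

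Catenins, which link classical cadherins but not protocadherins to actin, moved both ways. Of 7 tested, 3 fell and 1 rose, a share of 57.1% beside 47.3% of all genes tested, with a median of 0.30. Jup fell by 1.39 (SE 0.06, edgeR adjusted p = 3.8e-09), Ctnnb1 fell by 1.35 (SE 0.07, edgeR adjusted p = 1.7e-08) and Ctnnd1 fell by 1.22 (SE 0.07, edgeR adjusted p = 2.5e-08), while Arvcf rose by 1.56 (SE 0.09, edgeR adjusted p = 2.0e-08).

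Markers of synovial fibroblasts moved in the same direction as the protocadherins. Of 12 names, 11 were found and 8 tested, and 7 of these fell, beside 27.8% of all genes tested. Fap, 1 of the 7, passed the filter through its TNF-α libraries only, and 6 of the 7 with at least 10 counts in each EMO library fell. Their summed normalized counts ranged from 210600 to 231110 with TNF-α and from 35263 to 38023 with EMO. Col1a1 was at 102801 to 121730 counts with TNF-α and at 3554 to 3672 with EMO, and Vim, or vimentin, was at 61485 to 63786 counts with TNF-α and at 30071 to 32836 with EMO, a log2 fold change of -0.92. The surface markers Thy1, Pdpn and Prg4 had at most 7 counts in any library. The cell type is that of the labels and was not tested here. The epithelium list below summed to 9950 to 10807 normalized counts with TNF-α. The part of the fibroblast markers in the level of the protocadherins was not tested.

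Markers of neurons, where clustered protocadherins are best known, were mostly at or near 0. Of 9 neuron markers, 1 had at least 10 counts in 3 libraries, Map2, with 1671 to 1747 counts with TNF-α and 81 to 104 with EMO, and Tubb3, Syp and Stmn2 were at 0 in all libraries. The neuron list summed to 1662 to 1717 normalized counts against 84.9 to 108, nearly all of it Map2. Of 4 endothelium markers 1 was tested, Vwf, which passed the filter on low counts through its TNF-α libraries only. Kdr was at 0, and the list summed to 69.2 to 76.5 against 13.2 to 21.7.

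Of 7 macrophage markers 3 were tested, Ptprc had at most 1 count, Cd14 fell by 1.10 on the log2 scale, and Itgam had 1, 0 and 0 counts against 12, 10 and 14. The list, most of it Cd14, summed to 1202 to 1306 against 747 to 818. Of 6 epithelium markers 2 were tested, Epcam was at 0, Krt8 fell by 2.28 on the log2 scale, and Cldn4 had 0 counts in each TNF-α library against 16, 17 and 28. The list, nearly all of it Krt8, summed to 9950 to 10807 against 1984 to 2333. Itgam and Cldn4 passed the filter on low counts through their EMO libraries only. The part of these cell types in the protocadherin counts was not tested.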

How the data were processed

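Poly(A) RNA-seq of 3 TNF-α and 3 TNF-α+EMO libraries was used. Per the labels and the study's methods, the authors checked reads with FastQC, trimmed them with Trimmomatic and aligned them with HISAT2 to the rat genome (Rnor_6.0). The authors deposited whole-number counts per gene, which were analysed here, and FPKM values, which were not used for any result. The counting program, its strand setting and its handling of reads with several matches are not given in the sources used here. The authors' columns of group means, log2 fold changes and p-values were not used.

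The deposited counts of all 34156 genes were fitted with edgeR 4.0.16 (robust quasi-likelihood, TMM, group as the only term) in R 4.3.3. Genes needed at least 10 counts in at least 3 libraries, which left 13614, and p-values were Benjamini-Hochberg adjusted over all of them. SEs were derived from the log2 fold change and its F statistic. Exact permutation of 3 against 3 libraries cannot give a p below 0.1, so no such test was used for single values. A gene was taken as at the floor with at most 3 counts in each library of a group. Shares have 95% Wilson intervals, and ratios of groups with 1 to 3 counts in all have exact binomial intervals. The fit was tested on simulated counts.

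Members, gene lists and tests were chosen with earlier results of these data known. Named were all tested members, non-clustered members with at least 10 counts, the called genes with the 3 lowest and 3 highest fold changes of each list with Ctcf, Smchd1, Dnmt3b, Fyn, Ptk2, Adam10, Cdh2 and Cdh11, and the neighbours nearest to or inside the array. Other members at low counts, single markers, the catenins and the rows of the array without a Pcdh name were named after their values were seen. So were Dnmt1 and the WAVE complex genes other than Abi2 and Cyfip2. LOC rows, Pcdh1 and Pcdh12 were kept out of the neighbours. Protein sequences were not analysed here, and a list of further cell type markers is not reported here. Alternatives were DESeq2 1.42.0, other scalings, filters and fold thresholds, a replicate block and leaving out each library.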

Additional observations from a re-analysis of the deposited data

How the results depend on the processing

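Replicate numbers gave no sign of pairing: the deviations of same-numbered libraries correlated at -0.00066 to 0.057, beside -0.056 to 0.037 for other pairs. With 3 libraries per group, this check is weak and cannot exclude pairing. With a replicate block, the clustered genes called lower stayed at 12 with a median log2 fold change of -3.95, and no count or median moved beyond the limits set for it. The clustered genes called lower numbered 19 with DESeq2 and 20 with no filter (medians -3.51 and -3.33), because more low rows were tested, and 6 with a mean of at least 50 counts (median -4.61). They numbered 8 to 12 with a library left out (medians -4.24 to -3.83), where fewer rows passed the filter. The non-clustered median was -5.33 at that same mean and ran from -5.56 to 0.087 with a library left out, reversing to 0.087 and 0.028 without TNF-α replicates 1 and 2. Scaling by library totals moved the median of all genes by -0.11 and gave medians of -0.70 for regulators, -3.30 for other cadherins and 0.19 for neighbours. The mean of at least 50 counts gave -0.65 for regulators and 0.26 for neighbours, and other cadherins were at -2.64 with DESeq2 and -2.35 with no filter. Leaving out a library gave medians of -0.68 to -0.52 for regulators, 0.22 to 0.33 for neighbours and -3.18 to -2.59 for other cadherins, of which 10 to 15 were called lower. With no fold threshold, 28 regulators, 25 partners, 35 neighbours and 5366 genes on the higher side passed, and with an absolute log2 fold change over 2 the numbers were 3, 7, 7 and 809, with 2255 on the lower side. Regulators called numbered 9 to 11, partners 11 to 13 and neighbours 13 to 15 with a library left out. Log2 ratios of summed counts ran from -5.66 to -4.98 for alpha, -2.36 to -2.21 for beta and -4.41 to -4.33 for gamma, with gamma at -4.47 in CPM and beta at -1.65 with the other rows of its array. Of the single genes, LOC108348201 lost its adjusted p under 7 alternatives and Hdac3 gained it under library totals, at -0.18. The causes were not tested beyond the filters named.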
